A study of Mus musculus with 16 samples.

Results

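The genes described here encode the subunits, activators, inhibitor and assembly factors of the proteasome. They were chosen by name, as RefSeq protein-coding genes on chromosomes 1 to 19 of GRCm38 with the symbols Psma, Psmb, Psmc, Psmd, Psme, Psmf or Psmg followed by a number. This gave 47 genes of 20665 protein-coding genes on those chromosomes. The study mapped 2 histone marks, H3K27ac and H3K4me3, in late 2-cell mouse embryos 36 h after fertilization. The assay was ULI-NChIP-seq, a form of chromatin immunoprecipitation for few cells in which unfixed chromatin is digested with micrococcal nuclease before an antibody to the mark is added. All embryos had been injected as zygotes, with water in the control group and with Hdac1 mutant mRNA in the mutant group. Hdac1 encodes a histone deacetylase, and injection of mRNA leaves the embryo's own Hdac1 gene in place. The mutation carried by the mRNA, the mouse strain and the number of embryos per library are not given in the sources used here. For each mark and injection there were 2 immunoprecipitation and 2 input libraries, and 1 deposited peak list that names no library. The values below are therefore those of 4 lists, with no replicate error and no p-value, and a difference is a difference between lists.

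The proteasome degrades proteins that carry ubiquitin chains. Its 20S core is a barrel of alpha and beta rings with the proteolytic sites on the inside. The 19S cap, made of ATPases and other subunits, binds, unfolds and feeds in the substrate. Around zygotic genome activation the embryo clears maternal proteins, much of it through this pathway, while it begins to transcribe its own genes. H3K4me3 marks promoters of active or poised genes, and H3K27ac marks active promoters and enhancers. A peak is a place where a mark was called and is not a measure of expression.

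A gene was counted as marked when a peak touched the window of 2 kb on each side of either gene end. H3K4me3 was found at 47 of 47 proteasome genes in the control list and at 47 of 47 in the mutant list, where 76.4% and 75.1% of all coding genes were marked. Thus 0 of 47 had H3K4me3 in control only and 0 in mutant only, beside 6.22% and 4.9% of all coding genes, and 70.2% of all coding genes had it in both lists. The overlap asked for matters here, since 2 proteasome genes had H3K4me3 in control only where at least 500 bp had to be covered. Of control-marked coding genes 8.14% had no mutant H3K4me3 peak. H3K27ac was found at 42 of the 47 genes (89.4%, 95% Wilson interval 77.4 to 95.4) in control and at 36 (76.6%, 62.8 to 86.4) in mutant, against 56.3% and 59.3% of all coding genes. H3K27ac was in the control list only at 9 genes, where the share over all coding genes was 12.7%, and in the mutant list only at 3 genes, where it was 15.7%. These counts depend on the settings, since windows of 5 kb gave 4 genes in control only, and the wider 50% of each list gave 6 in mutant only. It was in both lists at 33 genes (70.2%, background 43.6%) and in neither at 2 (background 28.0%). Both marks were present at 42 genes in control and 36 in mutant, beside 52.4% and 53.1% of all coding genes. Seen from the genes marked in control, 9 of 42 (21.4%) had no mutant H3K27ac peak, against 22.6% of all control-marked coding genes, so the share without a mutant peak lay near the background. The intervals treat genes as independent draws and cover counting error only.

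The length of marked sequence differed more than the number of marked genes. Of 368.9 kb of gene-end windows, H3K27ac covered 208.5 kb in control (56.5%) and 124.0 kb in mutant (33.6%), a mutant-to-control ratio of 0.595. Over all coding genes the ratio was 0.863, with 27% and 23.3% of the windows covered. The whole window lay under H3K27ac at 5 genes in control and 2 in mutant (background 4.98% and 1.77%), and under H3K4me3 at 4 and 2 (3.94% and 5.6%). H3K27ac cover was lower in mutant at 33 proteasome genes and higher at 12, where 37.9% and 32.7% of all coding genes were lower and higher. A gene without a control peak cannot be lower, and of the control-marked genes 33 of 42 (78.6%) were lower, beside 67.4% of all control-marked coding genes. The median difference, mutant minus control, was -1322 bp per gene, with quartiles of -3868 and 55.5 bp, against a median of 0 over all genes. H3K4me3 covered 211.9 kb in control and 206.3 kb in mutant, a ratio of 0.973 beside 1.04 over all genes. Its cover was lower at 20 genes and higher at 26, against 32.7% and 43.2% of all coding genes. The direction of the H3K4me3 ratio is not settled, since windows of 5 kb gave 1.05.

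**Figure D1:**
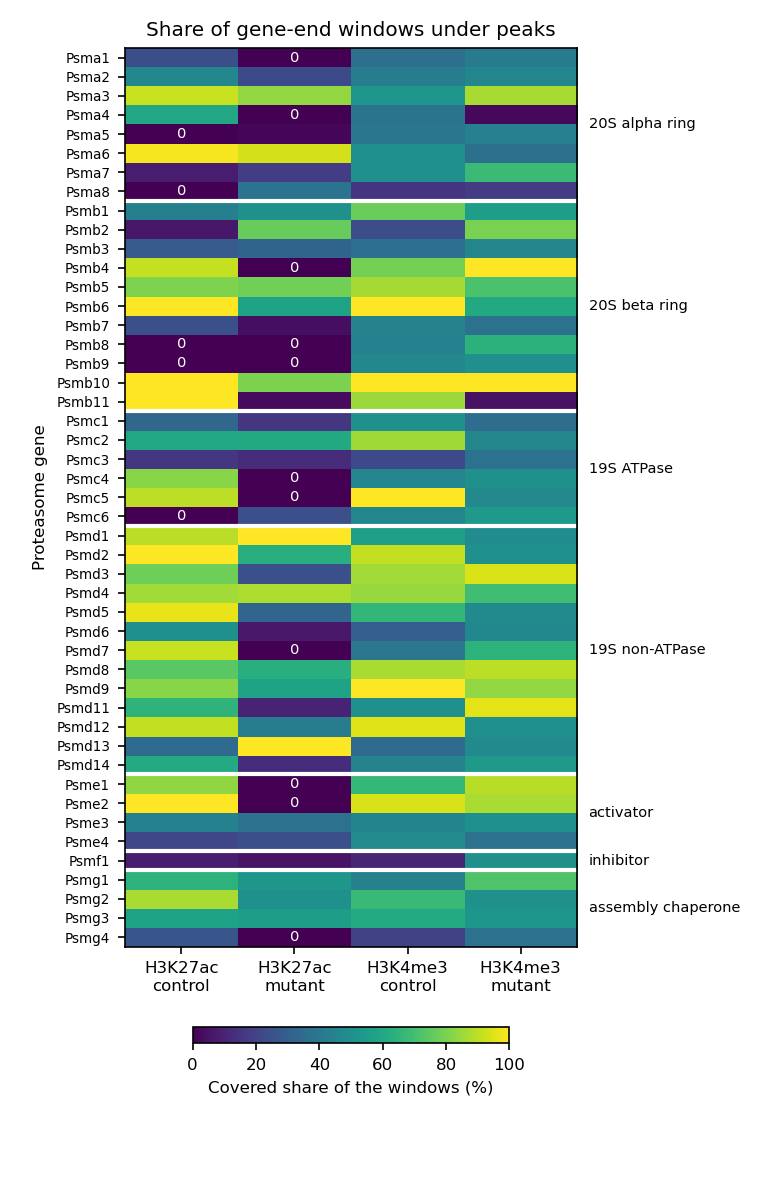
Share of the gene-end windows under peaks (%, colour) for 47 proteasome genes (rows, grouped by role) in the 4 lists (columns); 0 marks genes with no peak. The H3K27ac mutant column holds 11 genes at 0 and the H3K27ac control column 5, while no gene is at 0 for H3K4me3.

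Proteasome genes had a high control level of H3K27ac, and the comparison with all genes depends on that level. Among genes with an H3K27ac peak in control the ratio of covered length was 0.57 for 42 proteasome genes and 0.732 for 11632 coding genes. Choosing genes by their control peak itself lowers such a ratio, for all coding genes from 0.863 to 0.732, so these values are a description. The whole H3K27ac lists covered similar lengths of chromosomes 1 to 19, with 241.8 Mb in 73320 control peaks and 237.2 Mb in 114737 mutant peaks. The H3K4me3 lists held 246.7 Mb in 83220 control peaks and 272.9 Mb in 83290 mutant peaks. Sequencing depth, and its part in these differences, was not tested.

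**Figure D2:**
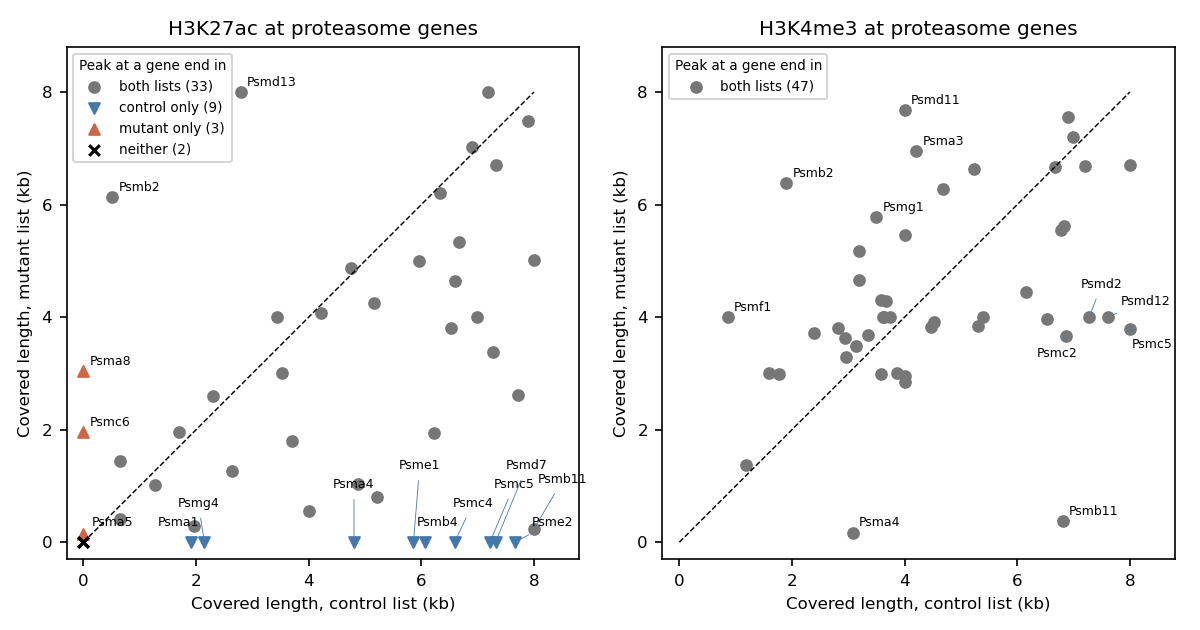
Covered length of the gene-end windows (kb) in the control list (x) against the mutant list (y) for 47 proteasome genes, 1 point per gene, with the dashed line at equal values. For H3K27ac 33 genes lie below the line and 9 of them on the x axis; for H3K4me3 the points lie on both sides, with 20 below and 26 above.

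The promoters of 5 genes are shown because these genes hold the extremes of cover on the start side. The start side is the window of 2 kb on each side of the first base of the gene model. Psma4 (chr9:54950609-54950908, plus strand) encodes an alpha-ring subunit and had 4000 bp of H3K27ac on that side in control and 0 in mutant, the largest difference. It shares that difference with Psmc5, Psmd11 and Psme2, and was taken as the first by name. Psmc6 (chr14:45329574-45329873, plus strand), an ATPase of the cap, had the largest increase of H3K27ac there, 1745 bp. Psmd2 (chr16:20651402-20651701, plus strand), a large scaffold subunit of the cap, had the largest negative difference of H3K4me3, with 4000 bp in control and 0 in mutant. Psmf1 (chr2:151741261-151741560, minus strand), the proteasome inhibitor PI31, had the largest increase of H3K4me3, 3139 bp. The Psmf1 promoter shown lies outside that window and was under H3K4me3 in both lists. Psmd1 (chr1:86064369-86064668, plus strand), the other large scaffold subunit, had the largest minimum of start-side cover over the 4 lists, 3906 bp of 4000 bp. The sequences are those of RefSeq on GRCm38.p6, from 250 bp before to 50 bp after the listed start, written 5′ to 3′ on the gene's strand. Capitals mark matches on either strand to the 5 motifs searched, which are named further on.
Psma4: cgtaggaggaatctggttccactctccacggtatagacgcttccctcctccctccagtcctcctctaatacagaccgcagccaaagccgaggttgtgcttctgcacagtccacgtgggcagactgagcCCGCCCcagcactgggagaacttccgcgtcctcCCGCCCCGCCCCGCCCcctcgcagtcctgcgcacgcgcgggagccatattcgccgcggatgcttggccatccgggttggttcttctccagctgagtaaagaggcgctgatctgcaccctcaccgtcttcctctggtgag
Psmc6: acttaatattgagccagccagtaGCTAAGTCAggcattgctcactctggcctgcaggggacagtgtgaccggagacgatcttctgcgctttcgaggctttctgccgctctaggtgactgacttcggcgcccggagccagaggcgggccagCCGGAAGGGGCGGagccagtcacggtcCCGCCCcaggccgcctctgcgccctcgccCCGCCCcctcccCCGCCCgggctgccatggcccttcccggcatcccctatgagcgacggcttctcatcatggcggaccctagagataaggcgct
Psmd2: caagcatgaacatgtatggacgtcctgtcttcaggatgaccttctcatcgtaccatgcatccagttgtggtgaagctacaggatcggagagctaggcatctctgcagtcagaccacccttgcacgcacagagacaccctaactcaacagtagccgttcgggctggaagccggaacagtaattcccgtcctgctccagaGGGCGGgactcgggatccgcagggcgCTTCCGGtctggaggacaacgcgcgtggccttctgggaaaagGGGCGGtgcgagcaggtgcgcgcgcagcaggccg
Psmf1: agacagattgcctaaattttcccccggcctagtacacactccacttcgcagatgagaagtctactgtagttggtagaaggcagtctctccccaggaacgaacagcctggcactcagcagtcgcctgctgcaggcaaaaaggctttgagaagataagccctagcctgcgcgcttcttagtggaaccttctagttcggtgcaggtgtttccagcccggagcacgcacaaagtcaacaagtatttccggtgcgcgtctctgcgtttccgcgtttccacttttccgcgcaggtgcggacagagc
Psmd1: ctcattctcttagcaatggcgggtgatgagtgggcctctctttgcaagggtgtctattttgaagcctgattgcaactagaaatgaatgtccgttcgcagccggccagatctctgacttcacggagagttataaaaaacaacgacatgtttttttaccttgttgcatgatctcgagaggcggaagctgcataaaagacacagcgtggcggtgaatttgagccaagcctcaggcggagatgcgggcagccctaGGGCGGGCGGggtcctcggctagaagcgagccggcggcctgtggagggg

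Psma4 holds 4 matches to GGGCGG, partly overlapping, and no other motif. Psmc6 holds 4 matches to GGGCGG, 1 to CCGGAAG and 1 to TGACNNNGC. Psmd2 holds 2 matches to GGGCGG and 1 to CCGGAAG, Psmd1 holds 2 to GGGCGG, and Psmf1 holds none of the 5 motifs. The 5 sequences contain 18 to 24 CpG dinucleotides each. The Psmd1 promoter lay under both marks in both lists, and those of Psma4 and Psmd2 lay under both marks in control and neither in mutant. All 3 hold GGGCGG, with 18, 23 and 22 CpG.

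The 300 bp promoter itself could be examined for 39 of the 47 genes, those with a listed start. H3K4me3 touched 38 of 39 promoters in control and 35 in mutant, beside 68.5% and 65.3% of 16457 coding promoters. The 3 promoters with H3K4me3 in control only were those of Psma4, Psmb11 and Psmd2, against a background of 7.31%. Psma6 had H3K4me3 over its most upstream promoter in neither list. H3K27ac touched 28 of 39 promoters (71.8%) in control and 19 (48.7%) in mutant, beside 37.9% and 30.8% of coding promoters. It was in control only at 13 promoters (33.3%, background 18.0%), in mutant only at 4 (10.3%, background 10.9%), in both lists at 15 (38.5%, background 19.9%) and in neither at 7 (17.9%, background 51.2%). Of the promoters marked in control, 13 of 28 (46.4%) had no mutant H3K27ac, beside 47.4% of all control-marked coding promoters, so this share lay near the background. The control-only promoters belonged to Psma3, Psma4, Psmb4, Psmb11, Psmc1, Psmc4, Psmc5, Psmd2, Psmd5, Psmd6, Psmd11, Psme1 and Psme2. The mutant-only promoters were those of Psma7, Psmc6, Psmd8 and Psmd13.

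Around the listed starts, H3K27ac formed a broad maximum in control that extended into the gene. In the 500 bp after the start 75.6% of bases of the 39 genes lay under H3K27ac peaks in control and 51.7% in mutant, beside 36.8% and 29.6% over all coding genes. From 1000 to 1500 bp after the start the shares were 75.5% and 39.9%, and 29.9% and 25.4% over all genes. The direction was not the same along the whole flank: from 4000 to 3500 bp before the start H3K27ac covered 36.5% in control and 46.9% in mutant, beside 27.8% and 24.1% over all genes. H3K4me3 covered 97.4% of the first 500 bp in control and 89.7% in mutant, and 67.8% and 64.9% over all genes. From 2000 to 2500 bp after the start it covered 61.6% in control and 70.4% in mutant, and over all genes 37.1% and 46.7%. Farther upstream the direction at proteasome genes varied between steps. H3K4me3 covered 52.6% in control and 45.5% in mutant from 7500 to 7000 bp before the start (27.4% and 29.2% over all genes), and 51.2% and 60.0% from 5500 to 5000 bp before it (28.3% and 31.2%).

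**Figure D3:**
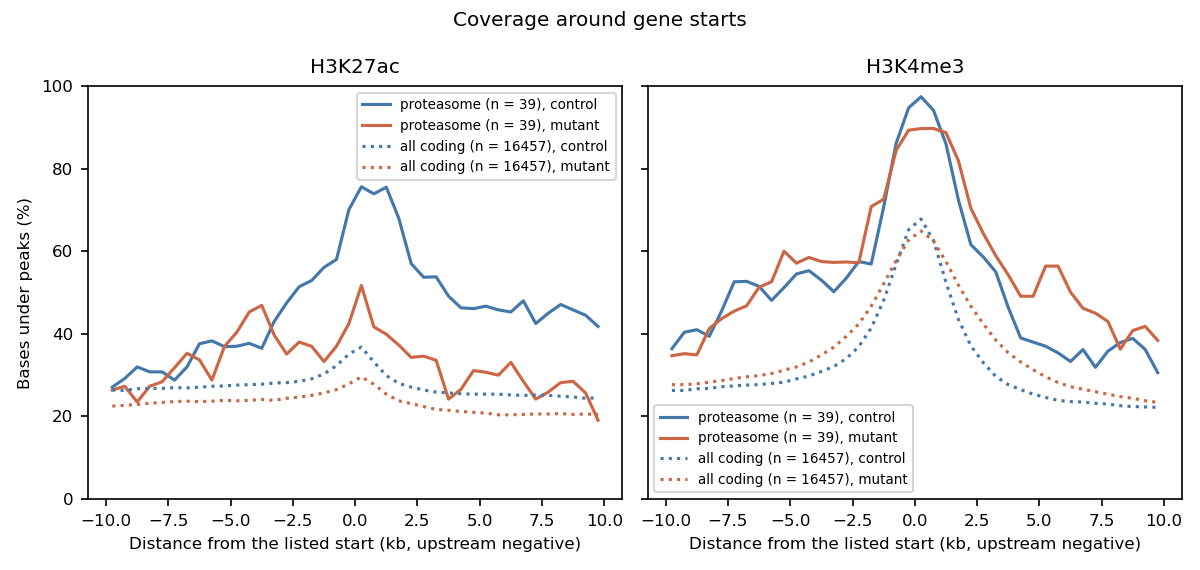
Share of bases under peaks (%) in 500 bp steps, from 10 kb before to 10 kb after the listed start (x, kb), for 39 proteasome genes (solid) and 16457 coding genes (dotted), control in blue and mutant in red. For H3K27ac the solid control line reaches 75.6% after the start and the solid mutant line 51.7%; for H3K4me3 they reach 97.4% and 89.7%.

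On the start side (2 kb on each side of the first base of the gene model), H3K27ac covered 103.0 kb in control and 65.6 kb in mutant over the 39 genes, a ratio of 0.637. On the stop side it covered 84.1 and 41.3 kb, a ratio of 0.491. Over all coding genes the ratios were 0.831 and 0.883. By number of genes the directions were closer on the start side, where H3K27ac cover was lower in mutant at 18 genes and higher at 16 (32.5% and 25.5% of all coding genes). On the stop side it was lower at 24 and higher at 6 (26.5% and 24.0% of all coding genes). H3K4me3 had a ratio of 1.03 on the start side and 0.785 on the stop side, beside 1.04 and 1.03 over all genes. H3K4me3 was lower at 12 genes and higher at 21 on the start side (background 25.1% and 37.3%), and lower at 15 and higher at 11 on the stop side (22.5% and 25.6%). Windows moved by 10 kb to lower and to higher coordinates, which at some genes reach the other gene end, were covered by H3K27ac for 43.4% and 43.8% in control and for 27.5% and 33.0% in mutant. Over all coding genes the shares were 24.9% and 25% in control and 21.4% and 21.3% in mutant. The moved windows held an H3K27ac peak at 34 and 37 proteasome genes in control and at 36 and 35 in mutant, beside 52.7% and 52.3% of all coding genes in control and 56.8% and 56.7% in mutant. The number of marked proteasome genes was thus not lower on both sides.

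Among the 8 alpha-ring genes, which form the outer rings and the gate of the core, H3K27ac marked 6 in each list but not the same ones. The ring's windows were covered for 26.3 kb in control and 20.6 kb in mutant by H3K27ac, and for 25.9 and 27.4 kb by H3K4me3. Psma4 (chr9:54950781-54958034) had 4804 bp of H3K27ac in control and 0 in mutant, and its H3K4me3 went from 3079 to 169 bp. Those 169 bp are the edge of a mutant peak of 2498 bp that does not reach the promoter. Psma1 had 1918 bp of H3K27ac in control and 0 in mutant, with H3K4me3 of 2959 and 3287 bp. Both genes had their H3K27ac in control only, and the nearest mutant peak lay 4476 bp from Psma1 and 3698 bp from Psma4. Psma8 encodes a subunit known from testis, and had no H3K27ac in its windows in control and 3037 bp in mutant, with H3K4me3 of 1190 and 1380 bp. Psma5 had no H3K27ac in its windows in control and 147 bp in mutant, the edge of a peak of 3789 bp on the stop side. Neither gene was without control H3K27ac, since a control peak of 2771 bp lay inside Psma8 and 1 of 1379 bp inside Psma5, outside the windows. Psma3 had 7325 and 6710 bp of H3K27ac, and 4207 and 6951 bp of H3K4me3. H3K27ac cover of the remaining genes, Psma2, Psma6 and Psma7, differed by -1892, -401 and 806 bp, mutant minus control.

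The 11 beta-ring genes include the proteolytic subunits. H3K27ac marked 9 in control and 8 in mutant, over 41.8 and 28.6 kb, and H3K4me3 covered 53.6 and 49.3 kb. Of the standard catalytic subunits, Psmb5 had 6337 bp of H3K27ac in control and 6198 bp in mutant, and 6832 and 5612 bp of H3K4me3. Psmb6 was wholly covered by both marks in control, at 6535 bp, and had 3799 bp of H3K27ac and 3959 bp of H3K4me3 in mutant. Psmb7 had 1969 and 282 bp of H3K27ac, and 3588 and 2987 bp of H3K4me3. All 3 thus had less of each mark in mutant. Psmb4 (chr3:94884324-94886958), a structural subunit, had 6058 bp of H3K27ac in control and 0 in mutant, while H3K4me3 went from 5240 to 6635 bp, the whole window. Psmb2 (chr4:126677637-126709715), another structural subunit, differed in the opposite direction, with 509 and 6137 bp of H3K27ac and 1901 and 6378 bp of H3K4me3. It had the largest positive difference of each mark among the 47 genes. Psmb1 had 3445 and 4000 bp of H3K27ac and Psmb3 had 2298 and 2590 bp.

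The subunits of specialised proteasomes, which are known from immune cells and thymus, did not behave alike. Psmb8 and Psmb9 replace catalytic subunits in the immunoproteasome and were the only 2 genes with no H3K27ac peak in either list. The nearest H3K27ac peaks lay 2402 bp from Psmb8 in control and 2467 bp in mutant, and 16526 and 3070 bp from Psmb9. H3K4me3 covered 3193 and 4653 bp at Psmb8 and 3735 and 4000 bp at Psmb9. Both windows also hold an end of Tap1, a peptide transporter gene, so their peaks cannot be assigned to 1 gene. Psmb10, the remaining immunoproteasome subunit, was covered over its whole window of 6665 bp by H3K27ac in control and over 5343 bp in mutant, and by H3K4me3 over 6665 bp in both. Psmb11, a catalytic subunit of thymic epithelium, had 8000 bp of H3K27ac in control and 237 bp in mutant, and 6804 and 373 bp of H3K4me3. It lies next to Psmb5 on chromosome 14, and the same peaks reached both genes in every list. In control the shared H3K27ac peak measured 18996 bp (chr14:54614421-54633416), and in mutant 6507 bp (chr14:54617040-54623546), which ended before Psmb11.

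The 6 ATPases form the ring that unfolds substrates. H3K27ac marked 5 in control and 4 in mutant, over 22.5 and 9.1 kb, a ratio of 0.405, and H3K4me3 covered 27.9 and 21.6 kb. Psmc5 (chr11:106256185-106263112) had 7216 bp of H3K27ac in control and 0 in mutant, and its H3K4me3 went from 8000 to 3780 bp. Psmc4 (chr7:28041702-28050092) had 6590 bp of H3K27ac in control and 0 in mutant, with 3638 and 4000 bp of H3K4me3. The nearest mutant H3K27ac peak lay 12542 bp from Psmc4 and 3973 bp from Psmc5. The windows of Psmc5 also hold ends of Ftsj3 and Smarcd2. Psmc6 went the other way, with 0 and 1955 bp of H3K27ac and 3669 and 4295 bp of H3K4me3, but a control H3K27ac peak of 2492 bp lay inside the gene, outside the windows. Psmc2 had similar H3K27ac, 4756 and 4867 bp, but 6865 and 3666 bp of H3K4me3. Psmc1 had 2631 and 1270 bp of H3K27ac, and Psmc3 had 1278 and 1014 bp.

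**Figure D4:**
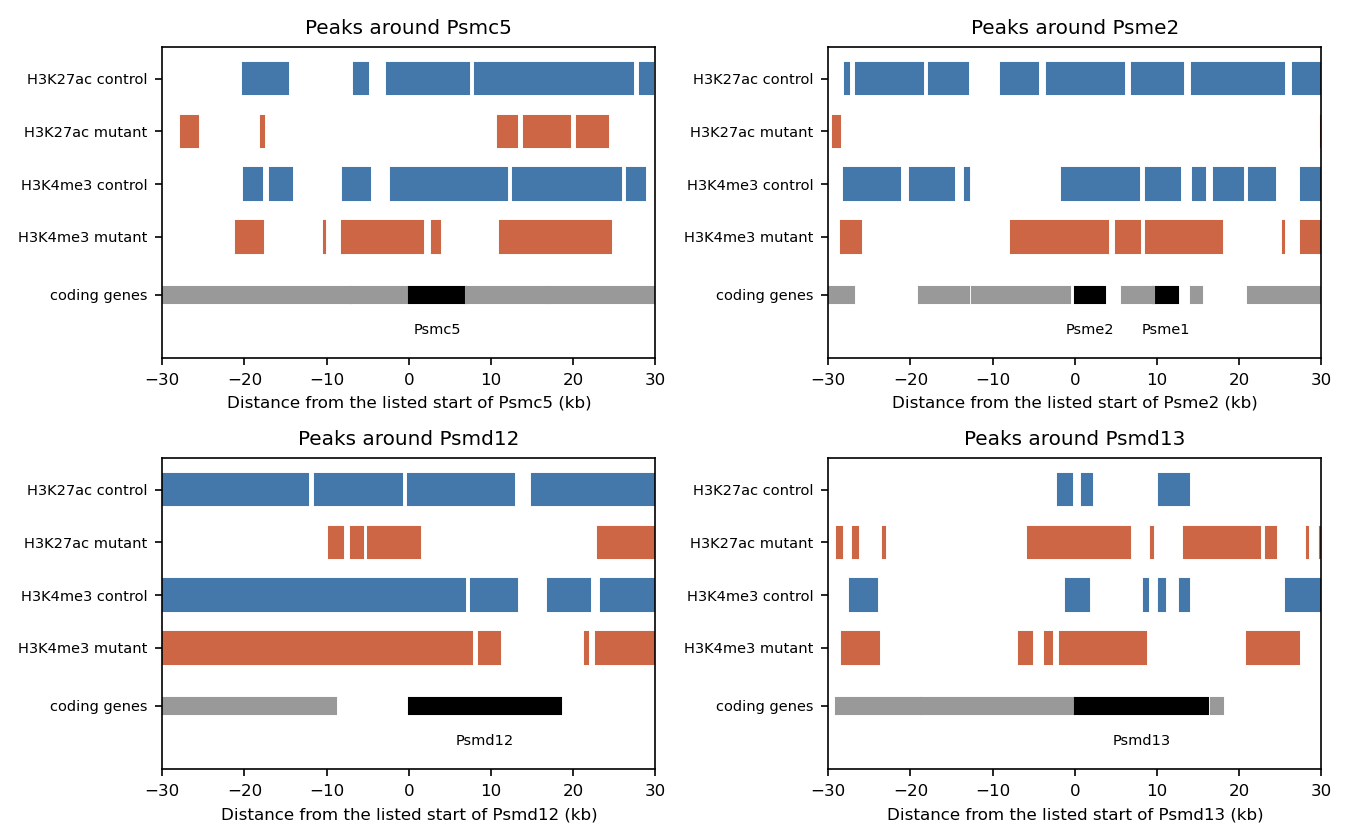
Peaks of the 4 lists (bars, control blue, mutant red) within 30 kb of the listed starts of Psmc5, Psme2, Psmd12 and Psmd13, as distance along the gene's direction (kb), with proteasome genes in black and other coding genes in grey. In mutant H3K27ac is absent from Psmc5, and from Psme2 with Psme1 and the nearby genes Emc9, Fitm1, Rnf31 and Irf9. H3K4me3 remains over the starts of Psmc5, Psme1 and Psme2. The H3K27ac bars over Psmd12 are wider in control than in mutant, and Psmd13 has wider bars in mutant.

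The 13 Psmd genes encode the other subunits of the cap, except Psmd5 and Psmd9, which encode chaperones of its assembly. As a group they had the highest share of H3K27ac cover in control among the roles, 80.1 of 104.0 kb (77.0%), and 48.0 kb (46.2%) in mutant. H3K27ac marked 13 of 13 in control and 12 in mutant, beside 56.3% and 59.3% of all coding genes. Cover was lower in mutant at 10 and higher at 3, where 67.4% of all control-marked coding genes were lower. H3K4me3 covered 69.3 and 67.4 kb. Psmd7 (chr8:107580380-107588482), the partner of the deubiquitinase Psmd14, had 7318 bp of H3K27ac in control and 0 in mutant, with 3183 and 5169 bp of H3K4me3. Its nearest mutant H3K27ac peak, of 15308 bp, lay 4862 bp away. Psmd14, which removes ubiquitin chains from substrates, had 4879 and 1033 bp of H3K27ac, and 3575 and 4299 bp of H3K4me3. Psmd11 had 5220 and 807 bp of H3K27ac, but 4000 and 7672 bp of H3K4me3. At these 3 genes the marks thus differed in opposite directions. Psmd12 (chr11:107479528-107498036) had 7274 and 3384 bp of H3K27ac, and 7610 and 4000 bp of H3K4me3. Psmd2 had 8000 and 5013 bp of H3K27ac, and 7277 and 4000 bp of H3K4me3. At Psmd2 the mutant cover of H3K4me3 lay on the stop side alone. Psmd13 (chr7:140882394-140898642) had 2794 bp of H3K27ac in control and 8000 bp in mutant, and 2809 and 3799 bp of H3K4me3. Psmd1 had 7184 and 8000 bp of H3K27ac, and Psmd4, a ubiquitin receptor, 6895 and 7024 bp. The other 5 genes, Psmd3, Psmd5, Psmd6, Psmd8 and Psmd9, had less H3K27ac in mutant, from 7718 and 2623 bp at Psmd5 to 5959 and 5004 bp at Psmd8.

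Of the 4 activators, which open the core in place of the cap, H3K27ac marked 4 in control and 2 in mutant, over 18.7 and 5.0 kb. H3K4me3 covered 19.4 kb in control, with a ratio of 1.03. Psme2 (chr14:55587440-55591101) had 7662 bp of H3K27ac in control and 0 in mutant, with 7212 and 6692 bp of H3K4me3. Psme1 (chr14:55578494-55581527) had 5860 and 0 bp of H3K27ac, with 4680 and 6280 bp of H3K4me3. These genes encode the partners of the activator PA28 and lie close together on chromosome 14, with Emc9 between them. The nearest mutant H3K27ac peak was 17320 bp from Psme1 and 26266 bp from Psme2. The windows of Psme1 also hold ends of Emc9 and Fitm1, and those of Psme2 an end of Rnf31. Psme1 and Psme2 share H3K4me3 peaks, and are better read as 1 locus than as separate cases. Psme3, a nuclear activator, had 3519 and 3005 bp of H3K27ac, and Psme4, an activator of nuclear and testis proteasomes, had 1688 and 1963 bp. Leaving out Psme2 and Psmb11, 1 gene of each pair that shares peaks, gave an H3K27ac ratio of 0.642 and an H3K4me3 ratio of 1.01.

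The inhibitor gene Psmf1 had little H3K27ac, 657 bp in control and 413 bp in mutant, and 861 and 4000 bp of H3K4me3. Its listed start lies inside the gene model and outside the start-side window, and the 300 bp promoter was under H3K4me3 in both lists. All 4 genes of the assembly chaperones, which help to build the alpha ring, had less H3K27ac in mutant, with 18.5 kb in control and 12.3 kb in mutant, and 14.9 and 16.6 kb of H3K4me3. Psmg4 had 2148 bp of H3K27ac on the stop side in control and 0 in mutant, with 1587 and 3002 bp of H3K4me3, and a mutant H3K27ac peak of 442 bp lay inside the gene, outside the windows. Psmg1 had 5164 and 4243 bp of H3K27ac, and 3495 and 5781 bp of H3K4me3. Psmg2 had 6983 and 4000 bp, and Psmg3 4226 and 4067 bp of H3K27ac.

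Peaks at proteasome genes were wide in control. The H3K27ac peaks were narrower in mutant there as in the whole lists, where 20.3% of control peaks and 10.4% of mutant peaks were wider than 5 kb. A peak wider than 10 kb touched the windows of 22 of 47 genes (46.8%) for H3K27ac in control and of 9 (19.1%) in mutant, beside 23.1% and 10.4% of all coding genes. For H3K4me3 the numbers were 16 and 17 genes, beside 19% and 25.1%. Peaks over 5 kb touched 31 and 21 genes for H3K27ac (background 34.8% and 26.5%) and 28 and 36 genes for H3K4me3 (40.0% and 49.3%). Per marked gene, the widest H3K27ac peak had a median width of 11527 bp in control against 5332 bp in mutant, and for H3K4me3 5988 against 9299 bp. Of 33 genes with H3K27ac in both lists the widest peak was narrower in mutant at 24 (72.7%) and wider at 9, where 66.8% of all such coding genes were narrower and 33.1% wider, so the share at proteasome genes lay near the background. For H3K4me3 it was narrower at 19 genes and wider at 28 (background 36.9% and 63.1%). The widest control H3K27ac peaks lay at Psmd12 (54451 bp), Psmb10 (47783 bp) and Psmd11 (36649 bp). At the same genes the widest mutant peaks measured 6296, 5360 and 1551 bp. In mutant the widest were at Psma6 (15668 bp), Psmc2 (15456 bp) and Psmb1 (12702 bp). For H3K4me3 the widest control peaks lay at Psmd2 (45166 bp), Psmd12 (43748 bp) and Psmb10 (26904 bp), and the widest mutant peaks at Psmd12 (44766 bp), Psma3 (20756 bp) and Psmd2 (20586 bp). The Psmd12 domain of H3K4me3 was thus nearly as wide in both lists, while its H3K27ac peaks were not. A whole gene lay in 1 H3K27ac peak for 10 proteasome genes in control (21.3%, background 5.13%) and for 1 gene, Psmb6, in mutant (2.13%, background 2.84%). For H3K4me3 this held for 9 and 4 genes (background 6.02% and 7.46%).

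**Figure D5:**
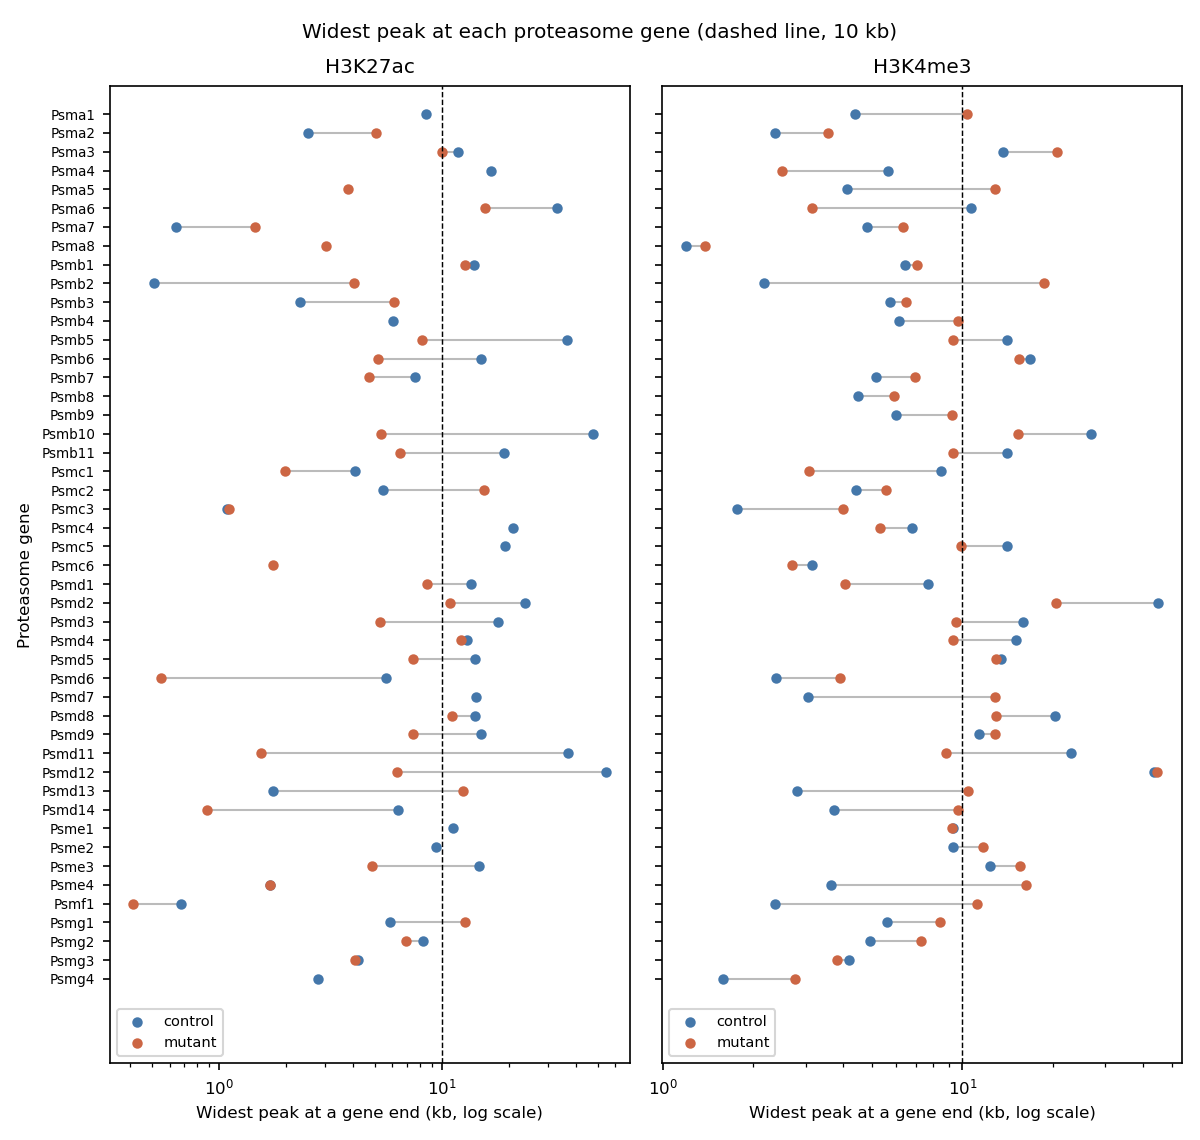
Width of the widest peak at each of the 47 proteasome genes (kb, log scale), control in blue and mutant in red, joined by a line where both lists have a peak; the dashed line is at 10 kb. For H3K27ac 22 control and 9 mutant points lie to the right of the dashed line, for H3K4me3 16 and 17.

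The marks overlapped less in mutant. Of the H3K4me3 bases in the windows, 76.3% (161.7 kb) also lay under H3K27ac in control and 42.1% (86.8 kb) in mutant, beside 52.9% and 39.9% over all coding genes. The share of H3K27ac bases under H3K4me3 was 77.5% in control and 70.0% in mutant, and 75.9% and 68.8% over all genes. Bases under both marks were present at 40 genes in control and 33 in mutant (85.1% and 70.2%), beside 47.2% and 45.0% of all coding genes. Since H3K4me3 was in both lists at every proteasome gene, these genes can be set beside the 14504 coding genes of that kind, of which 70.9% had H3K27ac in control and 72.7% in mutant. Of the control-marked among them 19.1% had no mutant H3K27ac peak, and of the proteasome genes 21.4%. Of those unmarked in control 52.6% had a mutant H3K27ac peak, and of the proteasome genes 3 of 5.

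Proteasome gene ends lie close to other genes. An end of another coding gene fell in the windows of 24 of 47 genes (51.1%, background 33.2%), so some peaks at these genes may belong to the neighbour. The promoters were richer in CpG than most, with a median observed-to-expected ratio of 0.763 (range 0.165 to 1.12) for 39 genes and 0.597 for all coding promoters. The lowest values were those of Psmb11, Psma6 and Psmb10, at 0.165, 0.185 and 0.192. The short motifs were searched on both strands, and their matches can overlap. CCGGAAG, the core bound by ETS factors, was in 13 of 39 promoters (33.3%) and in 12.3% of all coding promoters. GGGCGG, bound by SP factors, was in 22 (56.4%) and in 47.3%. CCAAT, bound by NF-Y, was in 13 (33.3%) and in 39.1%. TGACNNNGC, the core of the antioxidant response element through which Nfe2l1 acts on proteasome genes, was in 6 (15.4%) and in 13.2%. Those 6 were Psmb5, Psmb6, Psmc6, Psmd9, Psmd12 and Psme4. GCATGCG, the core bound by NRF1, was in 3 (7.69%), those of Psma2, Psmc5 and Psmg1, and in 4.59%. A match is a description of letters and not of binding.

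Other genes of the pathway were taken from a list by function, such as ubiquitin precursors, shuttle factors and the segregase Vcp. Of 27 listed genes 24 were matched on chromosomes 1 to 19. H3K27ac marked 21 of the 24 in control and 21 in mutant. It was in control only at 2 (Pomp and Adrm1, background 12.7%) and in mutant only at 2 (Uchl5 and Uba6, background 15.7%). The covered length was 93.6 and 76.8 kb, a ratio of 0.82, near the 0.863 over all coding genes. Cover was lower at 14 genes and higher at 8, beside 37.9% and 32.7% of all coding genes. H3K4me3 marked 23 and 22, with 113.4 and 105.2 kb, a ratio of 0.927 beside 1.04 over all coding genes. Pomp, the chaperone of core assembly, had 2900 bp of H3K27ac in control and 0 in mutant, with 3197 and 3605 bp of H3K4me3. Adrm1, a ubiquitin receptor of the cap, had 4000 and 0 bp of H3K27ac, with 6513 and 4000 bp of H3K4me3. Sem1, a small cap subunit, had 3050 and 774 bp of H3K27ac. Nfe2l1, the factor that raises proteasome gene transcription when proteasomes are inhibited, had 8000 and 3375 bp of H3K27ac, and 5985 and 7345 bp of H3K4me3. Other genes of the list had more H3K27ac in mutant. Ecpas, a proteasome adaptor, had 422 and 5542 bp, and the shuttle factor genes Ubqln1 and Rad23b had 2867 and 5814 bp and 3969 and 5748 bp. As a check of the stage, H3K27ac was found at 9 of 10 genes known from 2-cell embryos in each list and at 2 of 6 follicle-cell genes in control and 3 in mutant. H3K4me3 marked 9 of the 10 in each list, and 4 and 6 of the 6. Of all coding genes 56.3% and 59.3% had H3K27ac and 76.4% and 75.1% had H3K4me3. At the 10 genes of 2-cell embryos the ratio of H3K27ac cover was 0.566, beside 0.595 at the proteasome genes and 0.863 over all coding genes. H3K27ac cover was lower at 7 of the 10 and higher at 2, beside 37.9% and 32.7% of all coding genes. The ratio of H3K4me3 cover at the 10 genes was 0.68, beside 1.04 over all coding genes. Whether follicle cells contributed chromatin was not tested.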

How the data were processed

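The data are 4 deposited peak lists, each with the chromosome, start and end of peaks and no height, score or p-value. Per the submitters' processing notes, CASAVA, Trimmomatic, Bowtie2, SAMtools, Picard, MACS2 and deepTools were used with mm10 (GRCm38); versions, caller settings, the use of inputs and the pooling of replicates are not given in the sources used here. The authors' lists differ in their smallest peak width (149 to 182 bp) and smallest gap (602 to 734 bp), which affects number and width of peaks. Depth per library is unknown.

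Groups came from the sample titles. Gene positions came from a RefSeq table of GRCm38.p6, which gives no exons, and strand and starts from its promoter table, which holds 39 of the 47 genes. Where several starts are listed the most upstream was used. Overlap needed at least 1 bp, and covered length is the number of window bases under peaks. Python 3.11.15, pandas 2.3.3 and numpy 2.4.6 were used, and the interval functions were tested on simulated data. The members, gene lists and limits were chosen with earlier results of these data known. The genes named were all those without a peak or with a peak in 1 list only, the 5 largest differences in each direction and the 3 widest peaks per list, the specialised and catalytic subunits, Psmd14 and Psmf1; the remaining genes were given values so that each member is accounted for, after their values were seen. No tests were made, because each group is 1 list.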

Additional observations from a re-analysis of the deposited data

How the results depend on the processing

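No paired analysis was possible because 1 list stands for both libraries of a group, which also prevents leaving out a replicate. A stricter peak score could not be applied, since the lists hold none, and the wider 50% of each list was used. Over 10 alternatives, the last chosen after seeing the data, 160 recomputed values were obtained. Of these 146 stayed on the same side and within 1.5 times the reported value, 11 moved further and 3 crossed over. The H3K27ac ratio at proteasome genes ranged from 0.581 to 0.681 and stayed below 1 in all of them. The ratio over all coding genes was itself below 1, at 0.863. It was not recomputed under the alternatives, apart from 0.831 on the start side, so the difference from the background was not followed. The H3K4me3 ratio of 0.973 crossed to 1.05 with windows of 5 kb, 1.03 on the start side alone and 1.01 with 1 gene of each pair that shares peaks. Genes with H3K27ac in control only, 9 as reported, numbered 4 with windows of 5 kb, and those in mutant only, 3 as reported, numbered 6 in the wider 50% of each list. H3K4me3 was in control only at 2 genes and in mutant only at 1 with windows of 1 kb, in control only at 2 where at least 500 bp had to be covered, in mutant only at 1 in the wider 50%, and at 1 and 1 on the start side. Genes with higher H3K4me3 in mutant numbered 17 with windows of 1 kb. On the start side, where 39 genes have a strand, H3K27ac was lower at 18 genes and H3K4me3 at 12. The cause of these moves was not tested. The start-side setting differed both in using fewer genes and in leaving out the window at the other gene end.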

Other observations

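The CCGGAAG motif was unevenly spread over the roles, a split chosen after the values were seen. It was in 0 of 15 promoters of the alpha and beta rings and in 13 of 24 promoters of the other roles, among them Psmc1, Psmc2, Psmc6 and 6 of 11 Psmd genes. CCAAT was in 8 of the 15 ring promoters and in 5 of the 24 others. The difference was not tested.

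Psmd10, which encodes a chaperone of the cap and lies on the X chromosome outside the 47 genes, had no H3K27ac in its gene-end windows in control and 3157 bp in mutant, and 2226 bp of H3K4me3 in control and none in mutant. Uba1, the main ubiquitin-activating enzyme and also on the X, had 4648 and 2374 bp of H3K27ac, and 5947 and 1825 bp of H3K4me3. On the autosomes Uba6, the other activating enzyme, had no H3K27ac in control and 2086 bp in mutant, with 4000 bp of H3K4me3 in control and none in mutant.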
